A study of Mus musculus with 24 samples.

Results

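The unfolded protein response and the integrated stress response are described here from the RNA of 35 genes measured in 24 libraries. The genes are those rows of the table whose name equals 1 of 38 listed names, out of 12224 rows in all. Of the other 3 names, Vimp and Ero1l are older symbols of Selenos and Ero1a, which are among the 35, and Ddit3 occurs only in a row joined with B4galnt1. The rule uses names and no measured value, but the names were chosen with earlier results of these data known. All 35 passed the filter on low values, which kept rows whose mean reached 1 scaled unit.

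The libraries came from mpkCCD cells, an epithelial line of the mouse kidney cortical collecting duct, as wild-type cells (WT) and as cells with a knockout of Gpr39 (KO), a zinc-sensing G protein-coupled receptor. The WT vehicle and KO vehicle groups had 0.1% DMSO, and the WT agonist and KO agonist groups had 1 µM cpd1324, a GPR39 agonist, for 2 h in the basolateral compartment. The labels give no DMSO content for the agonist groups. All 4 groups, of 6 libraries each, also had 10 µM ZnCl2, so neither vehicle group was free of added zinc. All cells had grown on transwell inserts for 9 days without dDAVP, a vasopressin analogue, followed by 24 h in simple media. The labels do not say whether the 6 libraries of a group were separate cultures, so p-values measure only the spread between these samples, which may be technical. Neither the part of Gpr39 that was edited nor how many clones the KO cells came from is given, so a difference between the genotypes and a difference between clones cannot be told apart.

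The endoplasmic reticulum (ER) folds secreted and membrane proteins, and the unfolded protein response adjusts its capacity to its load. IRE1 (gene Ern1), PERK (Eif2ak3) and ATF6 sense unfolded protein in the ER. IRE1 splices the messenger of the transcription factor XBP1, ATF6 is cut to release a transcription factor, and PERK phosphorylates the initiation factor eIF2α, which lowers protein synthesis while favouring translation of ATF4. Other eIF2α kinases feed into the same step, which is why the ATF4 branch is called the integrated stress response. Splicing, cleavage and phosphorylation are not seen in gene-level RNA values, so the values below are transcript levels only.

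A scaled unit is a deposited signal (reads divided by a library factor and by gene length) times 1 constant. Levels of different genes compare only as far as the deposited lengths match the transcripts, which was not checked. Recovered reads per library ran from 29.8 to 51.9 M. A fold change is given on the log2(scaled units + 0.5) scale with its standard error. Calls are adjusted p-values under 0.05 in limma, over 11557 rows. The level of Gpr39 was 21.6 ± 1.61 (SD, n = 6) in WT vehicle and 9.37 ± 0.645 in KO vehicle libraries, so its transcript was lower in the knockout but still counted. Of 16 principal cell markers 13 had a row, with summed levels of 4990 to 5653 in WT vehicle, 9418 to 12271 in WT agonist, 5024 to 5610 in KO vehicle and 4606 to 5575 in KO agonist libraries. In WT agonist libraries 4 of the 13 were higher and 5 lower (median −0.13, from −1.35 for Scnn1g to 1.51 for Krt18), and their part in the results was not tested. Gata3, Aqp4 and Krt8 had no row that carried the name alone and only once, and were not analysed here. Summed markers of other kidney, stromal, endothelial and immune cells did not exceed 280.3 in any list; the proximal tubule list, with 2 of 10 markers measured, ran from 218 to 280.3 in WT and from 85 to 114 in KO libraries, and its part in the results was not tested. In bulk RNA, fewer cells of a type and less RNA per cell cannot be told apart. The library KO vehicle 6 stood apart, with a mean correlation of 0.980 with its group against 0.993 or more elsewhere, and calls that changed without it are given below. The summed level of all rows was 1.18 times as high in WT agonist as in WT vehicle libraries, and the effect of other scalings is given at the end.

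The elements known to bind the ER stress factors were looked for in RefSeq promoters (GRCm38.p6, 250 bases before to 50 after the start, both strands), which covered 31 of the 35 genes. The ER stress element (ERSE), known as the site where NF-Y binds together with ATF6 or XBP1, was searched as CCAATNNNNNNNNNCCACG. It occurred in 9 of the 31 genes, against 37 of 27025 genes in the promoter table (0.137%). The latter were not limited to genes measured here. Elements and genes were both picked as known parts of these responses, so such gaps are no result of these data. Each match is shown as read along the gene's own strand, with the fixed letters in capitals, the spacer in lower case and its distance from the start in bases. Matches that begin with CGTGG lie on the opposite strand.
Hspa5, −65 to −47: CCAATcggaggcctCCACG
Syvn1, −44 to −26: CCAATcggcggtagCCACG
Pdia6, −98 to −80: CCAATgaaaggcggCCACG
Dnajc3, −105 to −87: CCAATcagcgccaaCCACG
Canx, −145 to −127: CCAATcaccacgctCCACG
Hsp90b1, −212 to −194: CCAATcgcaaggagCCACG
Hsp90b1, −107 to −89: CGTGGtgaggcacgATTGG
Creld2, −126 to −108: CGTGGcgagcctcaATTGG
Calr, −162 to −144: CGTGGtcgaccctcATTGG
Derl3, −156 to −138: CGTGGgacttccccATTGG

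The related ERSE-II, ATTGGNCCACG, was present in Herpud1 (−52 to −42) and Dnajb11 (8 to 18 after the start), among 12 of 27025 genes (0.0444%). The core of the element bound by ATF4 with C/EBP proteins, searched as TTGCATCA, occurred in Chac1 (−193 to −186) and Herpud1, among 279 of 27025 genes (1.03%). The UPRE, TGACGTGG, occurred in 0 of the 31 genes and in 0.714% of all genes. Herpud1 thus held letters of both kinds, and Hspa5 and Herpud1 are printed in full because they carried the highest WT fold changes of the chaperones and of the degradation genes. Only exact letters were counted in every gene, so variant sites were not looked for. The capitals mark the exact match to the ERSE in Hspa5. In Herpud1 they mark the C/EBP-ATF core followed by the ERSE-II. Both sequences are on the plus strand of GRCm38.p6 and end at the base before the start.
Hspa5, chr2:34771840-34772089: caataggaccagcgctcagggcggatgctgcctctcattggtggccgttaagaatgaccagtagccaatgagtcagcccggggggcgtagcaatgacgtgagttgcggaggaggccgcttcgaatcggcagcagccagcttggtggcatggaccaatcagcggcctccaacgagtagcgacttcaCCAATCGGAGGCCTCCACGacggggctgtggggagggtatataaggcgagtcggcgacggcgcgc
Herpud1, chr8:94386179-94386428: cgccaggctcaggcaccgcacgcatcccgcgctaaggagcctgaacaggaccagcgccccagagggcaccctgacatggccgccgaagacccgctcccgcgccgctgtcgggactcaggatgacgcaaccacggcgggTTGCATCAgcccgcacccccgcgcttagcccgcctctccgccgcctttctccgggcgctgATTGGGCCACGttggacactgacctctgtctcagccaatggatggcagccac

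In WT cells the agonist went with higher RNA of nearly the whole set: 32 of the 35 genes rose and 0 fell. Among all rows tested, 28.6% were called higher and 28.6% lower. The median fold change of the 35 genes was 0.63, against −0.01 over all rows. For 29 genes every WT agonist library lay above every WT vehicle library, which held for 19.8% of all rows. Derl2, Derl3 and Nucb2 did not pass the test. Together the 35 genes took 0.691% ± 0.0159 of the summed level of a library (SD, n = 6) in WT vehicle and 1.33% ± 0.105 in WT agonist libraries, and Hspa5 alone went from 0.0561% to 0.363%.

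**Figure D1:**
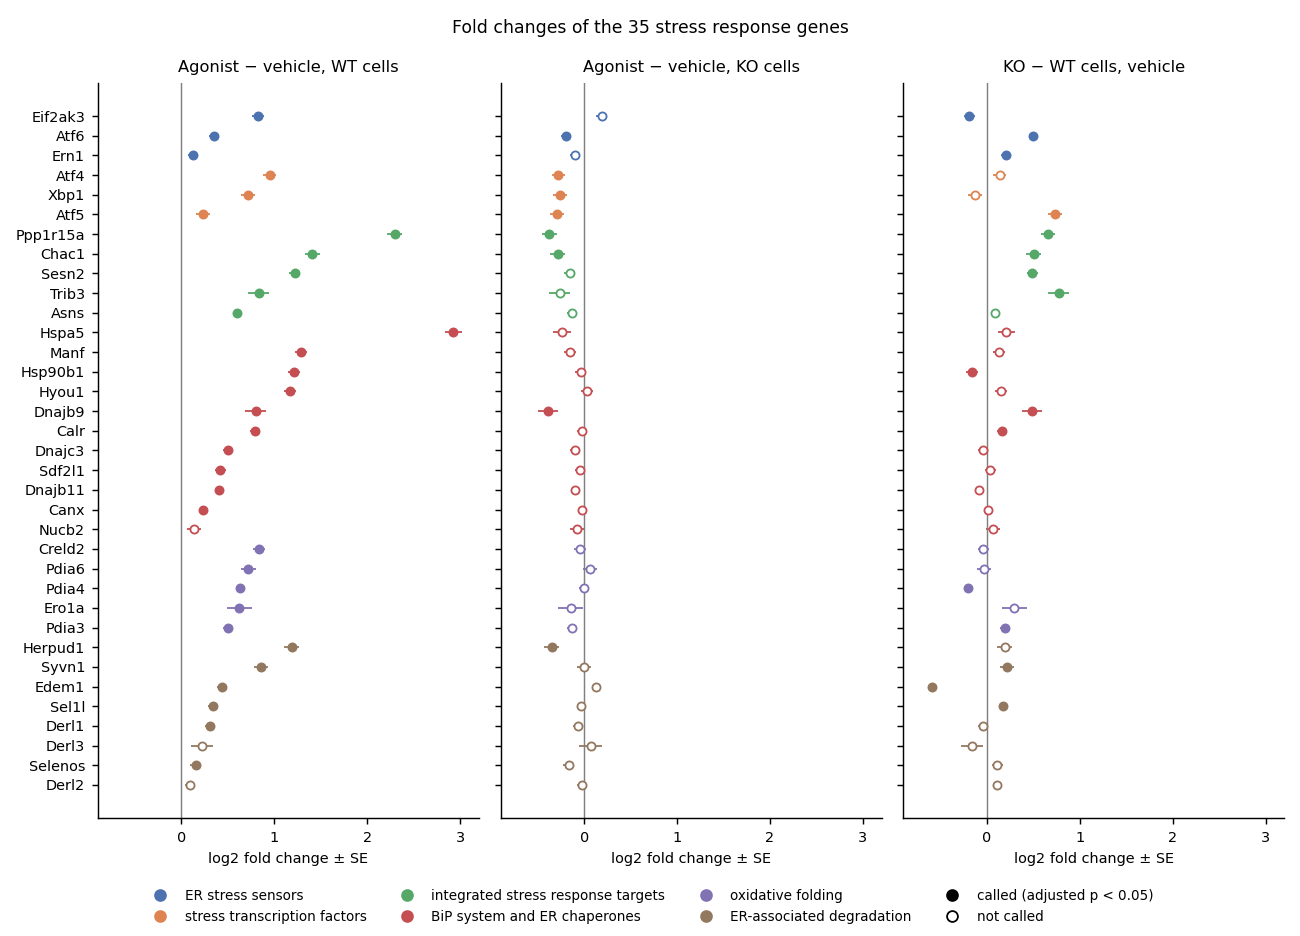
Log2 fold changes (points) with standard errors (bars) of the 35 genes, grouped and coloured by role, for agonist against vehicle in WT cells, the same in KO cells, and KO against WT cells under vehicle. Filled points passed an adjusted p below 0.05; 32 points are filled in the WT panel, all above 0, and 8 in the KO panel, all below 0.

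The 3 ER stress sensors were among the lower-expressed genes and responded unequally. Eif2ak3, encoding PERK, stood at 27.8 to 32.0 scaled units in WT vehicle libraries (median 28.6) and at 46.1 to 59.9 in WT agonist libraries (median 51.1), a fold change of 0.82 ± 0.06 (adjusted p = 2.56e-11). Atf6 rose from a range of 44.5 to 48.1 (median 46.7) to one of 53.5 to 61.8 (median 60.2), by 0.35 ± 0.05 (adjusted p = 9.32e-07). For both genes the WT groups did not overlap. Ern1, encoding IRE1, had 15.2 to 17.5 and 16.4 to 20.3 scaled units, which overlap, and its 0.13 ± 0.05 passed narrowly (adjusted p = 0.0451) and no longer passed without WT vehicle 1, 2, 4 or 6, WT agonist 4, 5 or 6, KO vehicle 1, 3 or 5, or KO agonist 1, 5 or 6 (adjusted p up to 0.133).

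Among the transcription factors, Atf4 had the highest level of all 35 genes in WT vehicle libraries. It ranged there from 766 to 1002 scaled units (median 876) and from 1482 to 1968 in WT agonist libraries (median 1657), a change of 0.95 ± 0.07 (adjusted p = 1.27e-11). Every agonist library was above every vehicle library. Xbp1, whose spliced messenger encodes the active factor, went from 155 to 201 (median 176) to 247 to 349.8 (median 279), by 0.71 ± 0.08 (adjusted p = 1.46e-08), again without overlap. Atf5, a relative of ATF4, overlapped between the groups, at 132 to 153 and 136 to 185 scaled units, and rose by 0.23 ± 0.07 (adjusted p = 0.0097).

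The integrated stress response targets had the highest median of the 6 groups of genes by role, 1.22, and all 5 were called. Ppp1r15a encodes GADD34, which directs the phosphatase that removes phosphate from eIF2α. It stood at 101 to 124 scaled units in WT vehicle libraries (median 114) and 471 to 675 in WT agonist libraries (median 564), a 4.91-fold difference (2.29 ± 0.08, adjusted p = 3.17e-18). Chac1, an enzyme that degrades glutathione, went from a range of 49.0 to 62.0 (median 55.3) to 131 to 176 (median 145), by 1.41 ± 0.08 (adjusted p = 1.03e-13). Sesn2, a leucine-binding inhibitor of mTORC1 signalling, went from 66.7 to 76.4 (median 72.7) to 153 to 202 (median 164), by 1.22 ± 0.06 (adjusted p = 3.23e-15). Trib3, a pseudokinase that inhibits ATF4, rose by 0.83 ± 0.11 and Asns, asparagine synthetase, by 0.60 ± 0.05. The WT groups of these 5 genes did not overlap.

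Of the 11 chaperones and cofactors of BiP, 10 rose, with a median of 0.79. Hspa5 encodes BiP, the main Hsp70 chaperone of the ER, and had the largest fold change of the 35 genes. Its WT vehicle libraries ranged from 489 to 593 scaled units (median 541) and its WT agonist libraries from 3285 to 5271 (median 4002), a 7.60-fold difference (2.93 ± 0.09, adjusted p = 1.56e-18). Its level under vehicle ranked 4 among the 35 genes, and its mean with agonist, 4155 ± 675 (SD, n = 6), was above that of Atf4, 1697 ± 177. The ER Hsp90 gene Hsp90b1 went from 639 to 683 (median 646) to 1267 to 1809 (median 1495), by 1.21 ± 0.06. Manf, a secreted ER protein that binds BiP, rose by 1.29 ± 0.06, from 90.8 ± 4.99 to 224 ± 24.7 scaled units. Hyou1, a nucleotide exchange factor of BiP, rose by 1.17 ± 0.06, from 149 ± 5.07 to 338 ± 36.5.

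**Figure D2:**
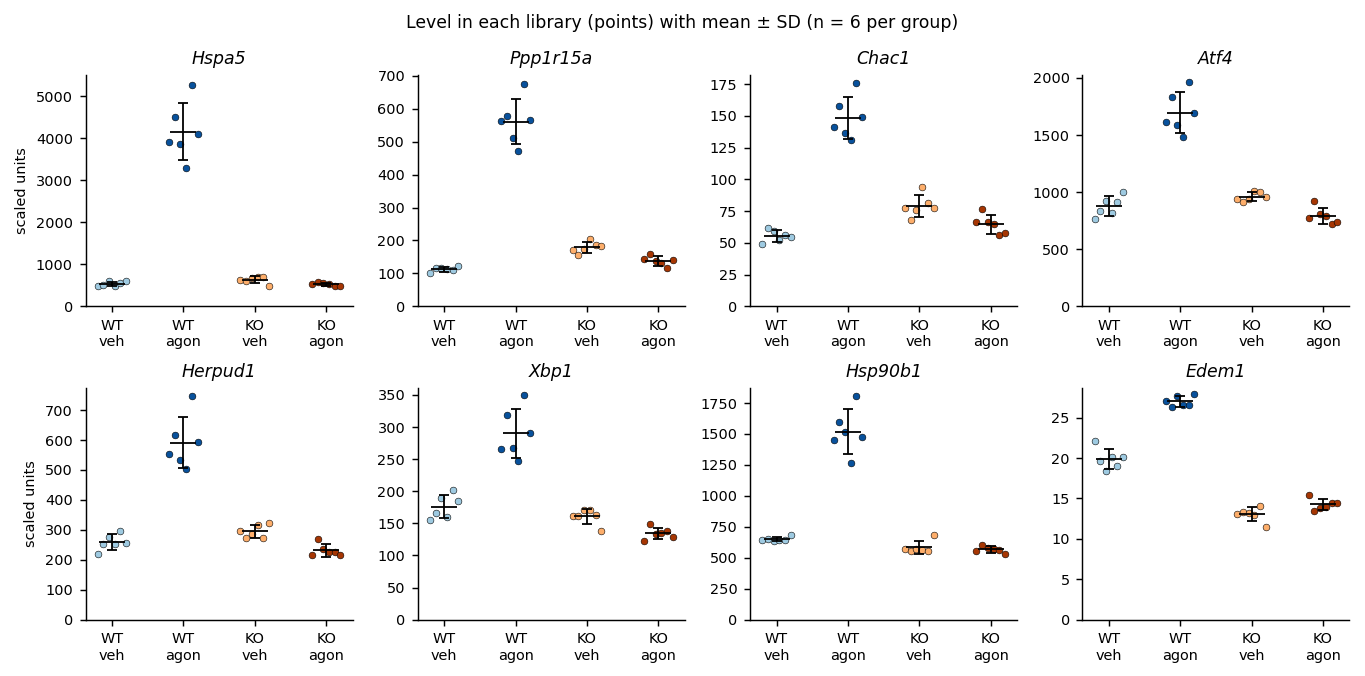
Levels in scaled units (y axes from 0) of 8 genes in the 6 libraries of each group (points), with mean and SD (bars); veh is vehicle and agon is agonist. WT agonist libraries lie above all others in each panel; for Hspa5 they range from 3285 to 5271 against 698 at most in the other groups, and for Edem1 both KO groups lie below both WT groups.

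The J-domain partners of BiP rose by less: Dnajb9 (ERdj4) by 0.80 ± 0.11, Dnajc3 (p58IPK, an inhibitor of PERK) by 0.50 ± 0.06 and Dnajb11 (ERdj3) by 0.40 ± 0.04. Sdf2l1, which associates with ERdj3, rose by 0.42 ± 0.06. The lectin chaperones of newly made glycoproteins differed from each other: Calr, calreticulin, rose by 0.79 ± 0.05 and Canx, its membrane-bound relative calnexin, by 0.23 ± 0.04. Nucb2, a calcium-binding protein, was at 29.2 to 33.4 and 32.1 to 36.9 scaled units in the WT groups, and its 0.14 ± 0.08 did not pass (adjusted p = 0.146); without the library KO vehicle 6, where Nucb2 was at 47.3 against 28.4 to 31.7 in the rest of its group, the same difference passed (adjusted p = 0.0054).

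All 5 oxidative folding genes rose, within a narrow range of 0.50 to 0.84. The protein disulphide isomerases Pdia6, Pdia4 and Pdia3 rose by 0.72 ± 0.08, 0.63 ± 0.05 and 0.50 ± 0.05. Creld2, a protein with isomerase activity, went from 130.3 to 133 scaled units, the tightest of these groups, to 209 to 282, by 0.84 ± 0.06. Ero1a, the oxidase that recharges the isomerases, was the most scattered, at 79.2 to 102 in WT vehicle and 116 to 174 in WT agonist libraries, and rose by 0.62 ± 0.14 (adjusted p = 0.000364).

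ER-associated degradation, which returns misfolded proteins to the cytosol for destruction, had the lowest median of the groups, 0.32, and 6 of its 8 genes rose. Herpud1, a scaffold of the degradation complex, led with 219 to 296 scaled units in WT vehicle libraries (median 254) and 504 to 747 in WT agonist libraries (median 574), by 1.19 ± 0.08 (adjusted p = 2.97e-12). The ubiquitin ligase of the complex, Syvn1 (HRD1), rose by 0.86 ± 0.08 and its partner Sel1l by 0.33 ± 0.05. Edem1, a lectin-like protein that takes glycoproteins to the complex, rose by 0.43 ± 0.05, from 18.4 to 22.1 (median 19.9) to 26.3 to 27.9 scaled units (median 26.8).

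The 3 derlins, membrane proteins of the export channel, were unequal in level and response. Derl1 rose by 0.31 ± 0.05 from 155 ± 3.30 scaled units. Derl2, at 29.5 ± 1.57, changed by 0.09 ± 0.05 (adjusted p = 0.125), and Derl3, the gene with the lowest level of the 35 at 1.34 ± 0.247 and 26 to 68 reads per library, by 0.22 ± 0.12 (adjusted p = 0.122). Selenos, a selenoprotein of the same complex, rose by 0.15 ± 0.06 with overlapping groups (adjusted p = 0.0262) and lost its call without WT vehicle 1, WT agonist 2 or WT agonist 5 (adjusted p = 0.0887, 0.0676 and 0.0719).

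Set beside the promoter letters above, the 11 genes with an ERSE or ERSE-II had a median WT fold change of 0.79, from 0.22 (Derl3) to 2.93 (Hspa5). The 20 genes with a promoter but no such match had a median of 0.61, from 0.09 to 2.29 (Ppp1r15a). Both sets spanned most of the range of the 35 genes, and this difference was not tested. A match describes letters, not binding, and a gene without a match may hold a variant site that was not searched.

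Within the WT agonist group the genes tended to be high or low in the same libraries. WT agonist 5 had the highest value for 25 of the 35 genes, against 24.7% of all rows, and WT agonist 4 the lowest for 20, against 16.0% of all rows. In KO agonist 2 the value was the highest of its group for 23 genes, against 28.2% of all rows. The summed level of all rows was also the highest of its group in WT agonist 5 and in KO agonist 2. It was the lowest of its group in WT agonist 4. Whether these totals carried the pattern was not tested. KO vehicle 6 was above the other 5 KO vehicle libraries for 14 genes and below them for 16, in shares close to those of all rows (39.4% and 37.9%). There Dnajb9 was at 135 scaled units against 77.9 to 92.2 in the others, Hsp90b1 at 688 against 553 to 572, Hspa5 at 473 against 606 to 698, and Pdia6 at 226 against 328 to 345.

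**Figure D3:**
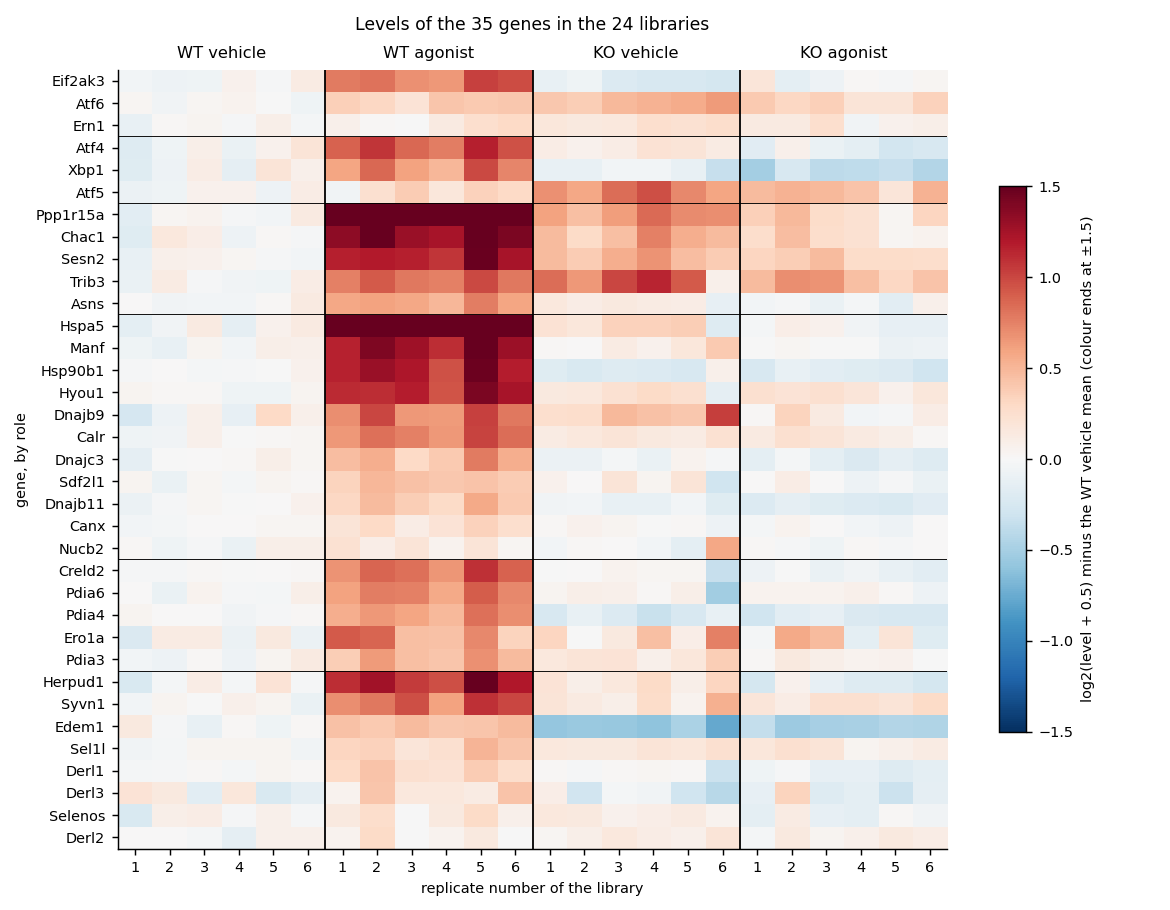
Level of each gene (rows, by role) in each of the 24 libraries (columns, by group and replicate number) as the log2 difference from the WT vehicle mean, red for higher and blue for lower, with colours ending at ±1.5. The WT agonist block is red for nearly all genes and the KO agonist block stays near 0 for most; the column KO vehicle 6 differs from its neighbours, as for Dnajb9 at 135 scaled units.

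In KO cells 0 of the 35 genes were called higher with the agonist and 8 lower, transcription factors and integrated stress response targets among them. Among all rows, 4.66% were called higher and 4.64% lower. The median of the 35 genes was −0.10, against −0.01 over all rows. The 8 genes included all 3 transcription factors, with Atf4 at −0.28 ± 0.07 (adjusted p = 0.0203), Atf5 at −0.29 ± 0.07 (adjusted p = 0.0206) and Xbp1 at −0.26 ± 0.08 (adjusted p = 0.0373). Ppp1r15a fell by 0.37 ± 0.08, from a range of 155 to 204 scaled units (median 179) to an overlapping one of 115 to 159 (median 139), and Chac1 by 0.28 ± 0.08. Herpud1 fell by 0.35 ± 0.08, from 273 to 322 (median 292) to 215 to 269.9 (median 225), with no overlap. Dnajb9 fell by 0.39 ± 0.11 and Atf6 by 0.20 ± 0.05.

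Hspa5 did not pass the test in KO cells, at 473 to 698 scaled units under vehicle (median 655) and 495 to 579 with agonist (median 525), a difference of −0.24 ± 0.09 (adjusted p = 0.105). Hsp90b1, Hyou1, Calr, Pdia4 and Syvn1 all lay within 0.04 of 0. Eif2ak3 was higher with the agonist, at 0.19 ± 0.06, just short of the threshold (adjusted p = 0.0546). It was called higher without WT agonist 4 or 5, KO vehicle 2 or KO agonist 2 (adjusted p = 0.049, 0.0405, 0.0445 and 0.0259). The number of KO calls depended on single libraries. Xbp1 lost its call without any 1 KO library other than KO vehicle 6 and KO agonist 2 (adjusted p up to 0.0931). Chac1 lost it without KO vehicle 4 or 5 or KO agonist 1, 4, 5 or 6 (up to 0.0775), Dnajb9 without KO vehicle 3 or KO agonist 1, 4, 5 or 6 (up to 0.0703), and Atf5 without KO agonist 5 (0.0505). Without KO vehicle 6, 13 genes were called, all lower, with Hspa5 at −0.32 (adjusted p = 0.0203), Trib3 at −0.40 (0.00607), Asns at −0.18 (0.015), Derl1 at −0.12 (0.0286) and Sesn2 at −0.18 (0.049) newly among them. The count was 5 without KO agonist 1, 4 or 6 and 4 without KO agonist 5, and it was 17 (16 lower, and Eif2ak3 higher) without KO vehicle 6 and KO agonist 2 together, a choice made after the data were seen.

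The agonist effects of the 2 genotypes differed for 32 genes in the interaction test (WT change minus KO change), all with the larger value in WT cells. Over all rows 21.5% were called with a larger value in WT cells and 19.6% with a smaller one. The median of the 35 genes was 0.66, against −0.02 over all rows. Hspa5 had an interaction of 3.16 ± 0.13 (adjusted p = 9.77e-16), Ppp1r15a of 2.67 ± 0.11 (adjusted p = 5.15e-16) and Chac1 of 1.69 ± 0.11 (adjusted p = 6.17e-12). Herpud1 followed at 1.54 ± 0.11, Manf at 1.45 ± 0.09 and Sesn2 at 1.37 ± 0.08. The genes not called were Derl2 (0.12 ± 0.07, adjusted p = 0.188), Derl3 (0.16 ± 0.17, adjusted p = 0.506) and Nucb2 (0.21 ± 0.11, adjusted p = 0.138). The call count stayed at 32 when any 1 library was left out.

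Without agonist, KO and WT cells differed in 16 of the 35 genes, with 12 higher and 4 lower in KO cells. Among all rows 23.9% were higher and 23.9% lower, and the medians were 0.13 for the 35 genes and 0.00 for all rows. Of the 5 integrated stress response targets 4 were higher in KO cells. Trib3 ranged from 143 to 166 scaled units in WT vehicle libraries (median 149) and from 161 to 339 in KO vehicle libraries (median 281), a difference of 0.77 ± 0.11 (adjusted p = 4.59e-06), and overlapped only through KO vehicle 6, at 161; without that library it was 0.91. Ppp1r15a, at 101 to 124 against 155 to 204, differed by 0.66 ± 0.08 (adjusted p = 1.51e-07), Chac1 by 0.50 ± 0.08 and Sesn2 by 0.48 ± 0.06. Asns did not pass (0.09 ± 0.05, adjusted p = 0.157), but did without KO vehicle 6 (0.13, adjusted p = 0.0134), as did the folding gene Sdf2l1 (0.03 ± 0.06 in full, 0.10 without it, adjusted p = 0.0429).

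The factor Atf5, at 132 to 153 scaled units in WT and 212 to 278 in KO vehicle libraries, was higher by 0.73 ± 0.07 (adjusted p = 1.07e-08), whereas Atf4 was at 0.14 ± 0.07 (adjusted p = 0.112) and Xbp1 at −0.13 ± 0.08 (adjusted p = 0.174). The sensors went in different directions: Atf6 was higher by 0.50 ± 0.05 and Ern1 by 0.20 ± 0.05, and Eif2ak3 was lower, at −0.19 ± 0.06 (adjusted p = 0.014). Among folding genes, Dnajb9 was higher by 0.48 ± 0.11 (0.37 without KO vehicle 6), Pdia3 by 0.20 ± 0.05 and Calr by 0.16 ± 0.05, and Pdia4 was lower, at −0.21 ± 0.05 (adjusted p = 0.00102). Hsp90b1 was lower at −0.16 ± 0.06 (adjusted p = 0.0361), a call lost without WT vehicle 2 or 6 or any 1 of KO vehicle 1 to 5 (adjusted p up to 0.0757); without KO vehicle 6 it was −0.21 (adjusted p = 0.00293). Hspa5 did not pass (0.21 ± 0.09, adjusted p = 0.073), but did without KO vehicle 6 (0.29, adjusted p = 0.00594). Hyou1 lay just short of the threshold (0.15 ± 0.06, adjusted p = 0.0502) and passed without that library (0.21, adjusted p = 0.00208). The degradation gene Herpud1 was also just short (0.19 ± 0.08, adjusted p = 0.0529) and was called higher in KO cells in 11 of 36 alternative fits.

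The most distinct degradation gene was Edem1. It ranged from 18.4 to 22.1 scaled units in WT vehicle and from 11.5 to 14.1 in KO vehicle libraries (median 13.2), a difference of −0.59 ± 0.05 (adjusted p = 1.98e-10) with no overlap. With agonist its KO libraries, at 13.4 to 15.5, remained below every WT library, and its KO agonist effect was 0.13 ± 0.05 (adjusted p = 0.0871). The partners Sel1l and Syvn1 were higher in KO vehicle libraries, by 0.17 ± 0.05 and 0.21 ± 0.08; Syvn1 lost its call without KO vehicle 6 (adjusted p = 0.0594) or WT vehicle 6 (adjusted p = 0.0501).

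With agonist, 30 of the 35 genes were lower and 1 higher in KO than in WT cells, against 32.1% lower and 32% higher among all rows; this comparison shares its libraries with those above. The median was −0.65. Hspa5 was at −2.96 ± 0.09 (adjusted p = 5.71e-19), Ppp1r15a was at −2.01 ± 0.08 and Hsp90b1 at −1.41 ± 0.06. Atf5 was the gene that was higher in KO cells, at 161 to 204 scaled units against 136 to 185 (0.21 ± 0.07, adjusted p = 0.0163), and it lost the call without WT agonist 1 (adjusted p = 0.06). Derl3, at −0.32 ± 0.12 (adjusted p = 0.0254), lost its call without WT agonist 2 or 6 or KO agonist 5 (adjusted p up to 0.064). Atf6 and Ern1 did not pass, at −0.05 ± 0.05 (adjusted p = 0.361) and −0.02 ± 0.05 (adjusted p = 0.715): in both, the WT agonist and KO agonist ranges overlapped. Nucb2 did not pass (−0.15 ± 0.08, adjusted p = 0.105), but did without KO vehicle 6 (adjusted p = 0.00242), at the same difference.

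The sizes, though for most genes not the calls, depended on how libraries were scaled. When each library was set to the same total, the median WT fold change of all rows moved from −0.01 to −0.24, all rows split into 1433 higher and 6944 lower instead of 3302 and 3303, and the 35 genes into 26 higher and 1 lower. Quantile scaling gave 2694 higher and 4128 lower rows, with 29 of the 35 genes higher and 1 lower. The median of the 35 genes thus lay above the median of all rows under each scaling. It was 0.39 against −0.24 with the same total and 0.42 against −0.06 with quantile scaling. Higher under every one of 4 scalings were 26 genes, Hspa5, Ppp1r15a, Chac1, Atf4, Xbp1 and Herpud1 included, and Hspa5 changed by 2.69 with the same total and 2.62 with quantile scaling. Atf5, Atf6, Ern1, Canx, Derl1 and Selenos were not called higher under all 4, and Canx was called lower with quantile scaling (−0.09, adjusted p = 0.0198). Derl2 was called lower with the same total (−0.15, adjusted p = 0.00588).

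**Figure D4:**
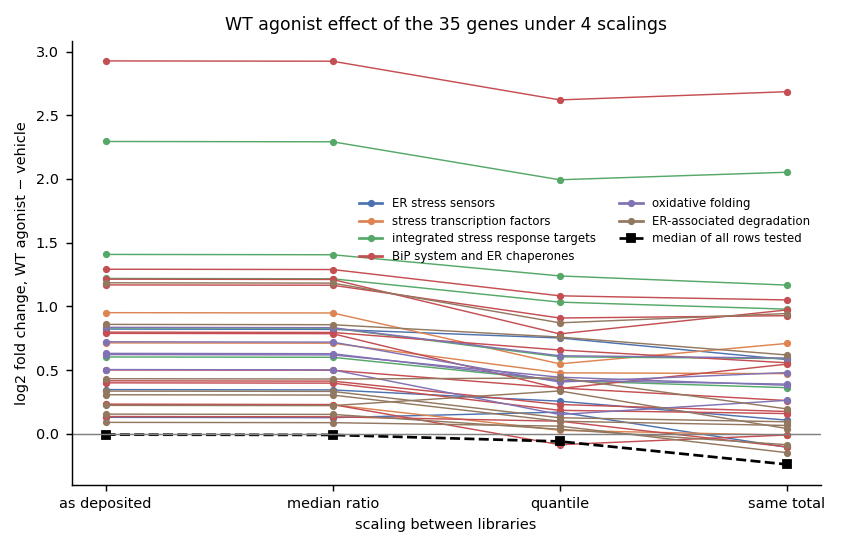
WT agonist effect (log2 fold change) of each of the 35 genes, 1 line per gene coloured by role, under 4 scalings between libraries, with the median of all rows tested as a dashed line. Hspa5 and Ppp1r15a stay highest under all 4, and the dashed line falls to −0.24 with the same total.

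For the interaction, 26 genes were called with a larger WT value under all 4 scalings, and Ern1, Canx, Edem1, Sel1l, Derl1 and Selenos were not. In KO cells 7 of the 8 lower genes were called under all 4, Atf6 being the exception. Eif2ak3 was called higher there with the same total (0.22, adjusted p = 0.0314) and with quantile scaling (0.18, adjusted p = 0.0483). All 12 higher and 4 lower genes of the vehicle comparison kept their calls in the 4 scalings, but the same total raised the number called to 18 higher and 4 lower, and quantile scaling to 17 and 5. For KO against WT cells with agonist, where the median of all rows moved to 0.28 with the same total, 5 genes were then higher and 24 lower.

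Other genes of the pathways were counted from lists chosen without regard to how their genes moved, though with earlier results of these data known. In WT agonist libraries 28.6% of all rows were higher and 28.6% lower. The list of ATF4 targets and amino acid response genes had 18 of 23 tested genes higher there and 2 lower (median 0.36). Its Atf3, a transcription factor downstream of ATF4, had an interaction of 3.89 ± 0.26, above that of every one of the 35 genes. Its level went from 149 ± 47.2 to 1472 ± 175 in WT cells (3.35 ± 0.19, adjusted p = 6.67e-14). In KO cells Atf3 had 134 ± 38.2 and 89.9 ± 19.0 scaled units. Slc38a2, an amino acid transporter, rose by 1.15 ± 0.05 and the stress cytokine Gdf15 by 2.01 ± 0.11. In KO agonist libraries 0 genes of the list were higher and 5 lower, beside 4.66% higher and 4.64% lower of all rows. In KO against WT cells under vehicle 15 were higher and 1 lower, beside 23.9% each way of all rows, with Gdf15 at 0.77 ± 0.11 among the higher.

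The cytosolic aminoacyl-tRNA synthetases charge tRNAs with amino acids and include known ATF4 targets. In WT cells 13 of 17 were higher with the agonist and 0 lower (median 0.29), beside 28.6% higher and 28.6% lower of all rows. Nars, Gars and Eprs led at 0.55 ± 0.04, 0.57 ± 0.04 and 0.59 ± 0.05. Under vehicle 12 of the 17 were higher in KO cells and 1 lower, beside 23.9% higher and 23.9% lower of all rows. In WT cells 28.6% of all rows rose and 28.6% fell. Of 14 genes of eIF2 and its kinases and phosphatase, 6 rose and 2 fell there (median 0.14). The risers included Ppp1r15b, the constitutive partner of the eIF2α phosphatase (0.70 ± 0.05), and the eIF2 subunits Eif2s1 (0.54 ± 0.05) and Eif2s2 (0.76 ± 0.08).

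For the COPII coat, which carries cargo out of the ER, 10 of 14 genes rose and 0 fell (median 0.20), with the cargo adaptors Sec24a at 1.06 ± 0.08 and Sec24d at 0.35 ± 0.05 and the scaffold Sec16a at 0.44 ± 0.06. Of 27 translocation and glycosylation genes 10 rose and 0 fell (median 0.06), led by the signal peptidase subunit Spcs3 at 0.78 ± 0.05 and the translocon-associated Ssr3 and Ssr1 at 0.35 ± 0.05 and 0.25 ± 0.04. Among 29 other folding factors 10 rose and 3 fell (median 0.07), including the selenoprotein Selenok at 0.86 ± 0.07, the calcium-binding Calu at 0.45 ± 0.04 and Txndc11 at 0.42 ± 0.04. For 21 other degradation factors the counts were 7 and 1 (median 0.01), with Ubxn4 at 0.58 ± 0.05 and the ubiquitin-conjugating enzymes Ube2j1 at 0.51 ± 0.05 and Ube2j2 at 0.49 ± 0.06. Beyond the sensors, 3 of 12 regulators of ER stress rose and 1 fell (median 0.04): Nfya, a subunit of NF-Y, at 0.37 ± 0.04, Wfs1 at 0.38 ± 0.06 and, lower, the ATF6-related Creb3l2 at −0.25 ± 0.06. Beside the 28.6% higher and 28.6% lower of all rows, the counts of rising genes for translocation and glycosylation, other folding, other degradation and the regulators lie near the share of all rows and are no result about those lists. Of 3 transcripts known to be degraded by IRE1, 0 fell, and Sparc rose in WT (0.56 ± 0.24, adjusted p = 0.0485) and in KO cells (0.82 ± 0.24, adjusted p = 0.0346).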

How the data were processed

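Poly(A) RNA was sequenced in 24 libraries, grouped by their titles. The authors deposited 1 table of signal values per gene and library. Multiplied by gene length and a library factor between 0.754 and 1.46, at least 99.99% of them were whole within 0.1, so they were treated as reads divided by both. The assembly GRCm39 and the tools DESeq, DESeq2 and STAR 2.7.8a are named, without roles, per the submitters' processing notes. Strand is not given, so overlapping genes could share reads. The values were multiplied by 92.1, which sets the mean column total to 1000000. Group means over all 24 libraries were compared in limma 3.58.1 (R 4.3.3) on log2(scaled units + 0.5), with trend and robust moderation and 20 residual degrees of freedom. Benjamini-Hochberg adjustment ran over 11557 rows, and tests were two-sided. The fit was also run on simulated data in which few rows changed, in WT agonist libraries only. That run does not cover the many changed rows and unequal totals of these data. With 6 libraries per group the errors come from a pooled spread. The genes and lists were chosen with earlier results of these data known. All 35 genes were named, and from other lists up to 3 called genes by smallest adjusted p in WT cells, plus any with a larger interaction than all 35. Protein sequences were not used here. Alternatives covered pseudocount, filter, scaling, moderation, samples, pairing, voom on recovered reads and leaving out libraries.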

Additional observations from a re-analysis of the deposited data

Results flagged for a closer look

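The agonist effect differed between WT and KO cells for 32 of the 35 genes by the interaction test in limma (WT minus KO, log2). The values were Hspa5 3.16, Ppp1r15a 2.67, Chac1 1.69, Herpud1 1.54, Manf 1.45, Sesn2 1.37, Hsp90b1 1.25, Atf4 1.23, Dnajb9 1.19, Hyou1 1.14 and Trib3 1.10. Between 0.5 and 1 lay Xbp1 0.97, Creld2 0.88, Syvn1 0.86, Calr 0.81, Ero1a 0.77, Asns 0.74, Pdia6 0.66, Pdia3 0.64, Pdia4 0.64, Eif2ak3 0.63, Dnajc3 0.60, Atf6 0.55 and Atf5 0.52. The smallest were Dnajb11 0.50, Sdf2l1 0.46, Derl1 0.37, Sel1l 0.37, Selenos 0.32, Edem1 0.31, Canx 0.25 and Ern1 0.23.

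In 16 of 140 checks of a gene in a group, 1 library lay far from the other 5; chance flags about 1 in 20 groups. KO vehicle 6 accounted for most of them. In scaled units it was high for Dnajb9 (135), Hsp90b1 (688) and Nucb2 (47.3), and low for Xbp1 (138), Pdia6 (226), Creld2 (104), Hyou1 (136), Asns (86.8) and Derl1 (124). WT agonist 5 was high for Sesn2 (202) and Asns (162), and WT vehicle 6 for Hsp90b1 (683) and Asns (104). KO agonist 5 was low for Atf5 (161) and Hyou1 (156), and KO agonist 2 was high for Derl3 (1.80).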

How the results depend on the processing

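The 32 WT and 32 interaction calls had ranges of 30 to 33 and 32 to 32 when 1 library was left out, KO against WT cells 15 to 20 under vehicle (16 in full) and 30 to 32 with agonist (31 in full), and the KO agonist effect 4 to 13 (8 in full). Without KO vehicle 6 and KO agonist 2 together the KO count was 17. A replicate block gave 31, 9, 32, 16 and 31 for WT, KO, interaction, vehicle and agonist; it removed the WT call of Ern1 (adjusted p = 0.0557). The labels do not say whether replicate numbers pair the libraries, and correlations cannot settle it. Same-numbered libraries correlated from −0.315 to 0.488 (median 0.0174), with 10 of 36 pairs above 0.1. Of 24 libraries, 5 correlated best with their own number. Voom on recovered reads gave 32, 8, 32, 18 and 31. A fit of the compared groups alone gave 32, 7, 17 and 32 for WT, KO, vehicle and agonist, without the WT call of Ern1 (adjusted p = 0.0677) and the KO call of Dnajb9 (0.0529); it was not run for the interaction.

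Differences near 0 that did not pass the test also changed sign when 1 library was left out, as Nucb2 (0.06 to −0.04) and Pdia6 (−0.03 to 0.06) did in KO against WT cells under vehicle without KO vehicle 6. Scaling changed further directions. In WT cells the same total gave Atf5 −0.011, Ern1 −0.11, Canx −0.0095, Derl2 −0.15 and Selenos −0.086, and quantile scaling gave Canx −0.086. For the interaction the same total gave Ern1 −0.040, Canx −0.023 and Derl2 −0.15, and quantile scaling Canx −0.10. For KO against WT cells with agonist the same total gave Atf6 0.23, Ern1 0.26, Canx 0.043, Sel1l 0.094, Derl2 0.28 and Selenos 0.075, and quantile scaling Canx 0.11 and Sel1l 0.042. The cause was not tested. Depth limits mainly Derl3, with 26 to 68 reads per library.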

Other observations

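Ddit3, which encodes CHOP, a factor of the PERK and ATF4 branch, was counted only in a row joined with B4galnt1, and reads of the 2 genes cannot be separated there. The mean of the joined row was 85.6 ± 2.22 scaled units (SD, n = 6) in WT vehicle, 108 ± 6.29 in WT agonist, 75.8 ± 2.24 in KO vehicle and 73.3 ± 2.65 in KO agonist libraries. Its WT agonist effect was 0.33 ± 0.04 (adjusted p = 3.26e-08 in limma), its KO agonist effect −0.05 ± 0.04 (adjusted p = 0.417) and its interaction 0.38 ± 0.05 (adjusted p = 1.93e-06).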
